A study of Homo sapiens with 12 samples.

Results

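The 10 genes described here are markers of the mesothelium and keratins of simple epithelia: MSLN, CALB2, WT1, PDPN and UPK3B, the keratins KRT8, KRT18, KRT7 and KRT19, and the tumour suppressor BAP1. They were chosen by symbol from the 58735 genes of the deposited table, and all 10 symbols matched 1 gene each. The cells were MSTO-211H, an established line from a human mesothelioma, kept in suspension with epidermal and fibroblast growth factors. The submitters call these cultures mesothelioma-initiating cells. Every library came from this 1 line, at 48 h after irradiation or sham irradiation.

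The study had 4 groups of 3 libraries. Con received vehicle and sham irradiation, and IR received vehicle and 4 Gy. Rx was read as 10 µM QTP with sham irradiation and Combo as 10 µM QTP with 4 Gy, because these are the 2 arms of the design that the titles Con and IR leave. The compound is given here only by the name QTP, as in the labels. The labels do not tell whether the 3 libraries of a group are separate cultures, so p-values reflect only how these libraries spread, and that spread may be technical.

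The mesothelium is the flat cell layer that lines the pleura, peritoneum and pericardium, and mesothelioma is its tumour. It shares features of epithelia and of mesenchyme, so its cells carry keratins beside vimentin, and pathologists tell the tumour from carcinoma by panels of such markers. Keratins form filaments only as pairs of a type II and a type I chain. In simple epithelia KRT8 and KRT7 are the type II chains, and KRT18 and KRT19 are the type I chains.

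The related keratins resemble each other in sequence and have many pseudogene copies, so the reads of a gene can be shared with its copies. The stretches below, of 60 bases each, compare the type I chains KRT18 and KRT19, whose principal transcripts shared no 50-base window. They are written 5′ to 3′ from the coding sequence of the GENCODE 29 transcripts (hg38), at the place where KRT19 has the fewest differences from KRT18. KRT18 lies at chr12:52949408-52949467 (plus strand) and KRT19 at chr17:41527954-41528013 (minus strand). Capitals mark the 9 bases at which KRT19 differs from KRT18.
KRT18: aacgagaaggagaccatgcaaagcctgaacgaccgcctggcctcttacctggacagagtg
KRT19: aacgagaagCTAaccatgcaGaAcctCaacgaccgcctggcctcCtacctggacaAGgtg

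Over whole transcripts, 39.7% of the 50-base windows of KRT8 and 35.1% of those of KRT18 were also found in transcripts of other genes, and 7.25% of the 100-base windows of KRT8 and none of those of KRT18. The annotation holds 50 KRT8 pseudogenes and 67 KRT18 pseudogenes, whose mean levels summed to 6.92 and 1.28 FPKM. KRT8P12 was the highest of the KRT8 copies, at 2.69 ± 0.25 FPKM (SD, n = 12), which is 0.564% of the KRT8 level. How the authors' counting treated reads with several matches is not given in the sources used here, so the keratin values are uncertain to that extent. KRT19 shared 1.79% of its 50-base windows, all with KRT19P1 and none with KRT18. MSLN, CALB2, WT1 and BAP1 shared none of their 50-base windows with another gene.

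The values are FPKM, reads scaled to gene length and library. Whole reads recovered from them summed to 13188257 to 18630958 per library. Mitochondrial genes took 6.73% to 10.5% of the reads. The highest mitochondrial share was in IR 3, which also had the fewest genes above 0 (23102), and Combo 3 had the most genes above 0 (26527). These 2 libraries were the ends of that count, so results that rest on them are also given without them. Among replicates, IR 1 and IR 3 differed most in their reads, with a chi-square per degree of freedom of 39.9. Combo 1 and Combo 3 differed least, at 7.09, so Combo 3 did not stand apart from its replicates by this measure. Differences were tested with limma on log2(FPKM + 1) over the 13038 genes whose mean reached 1 FPKM, with Benjamini-Hochberg adjustment over all of them and a threshold of 0.05. Of the 10 genes, 5 entered the test (KRT18, KRT8, MSLN, CALB2 and BAP1) and 5 lay below the filter (WT1, KRT7, UPK3B, KRT19 and PDPN). BAP1, at a mean of 16.7 FPKM, and WT1, at 0.955 FPKM, stood on either side of it. Rescaling to TPM moved the log2 level of a library by between -0.22 (IR 3) and 0.11.

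MSTO-211H cells expressed the KRT8 and KRT18 pair at very high levels, MSLN, CALB2 and BAP1 at moderate levels, and the remaining genes at about 1 FPKM or less. KRT18 had a mean of 548.7 ± 109 FPKM and KRT8 of 476.5 ± 86.7 FPKM (SD, n = 12 libraries), ranks 43 and 51 among the 58735 genes. MSLN followed at 40.1 ± 11.9, CALB2 at 20.2 ± 5.73 and BAP1 at 16.7 ± 0.66 FPKM. The other means were 0.955 for WT1, 0.316 for KRT7, 0.0979 for UPK3B and 0.0502 for KRT19, and PDPN was at 0 in all 12 libraries. MSLN lay above CALB2 in 12 of 12 libraries, while CALB2 lay above BAP1 in 8 of 12, so the order of these 2 did not hold beyond their spread. As a set of mesothelial markers the genes were therefore split: MSLN and CALB2 were present, WT1 was close to 1 FPKM, and UPK3B and PDPN were near or at 0.

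**Figure D1:**
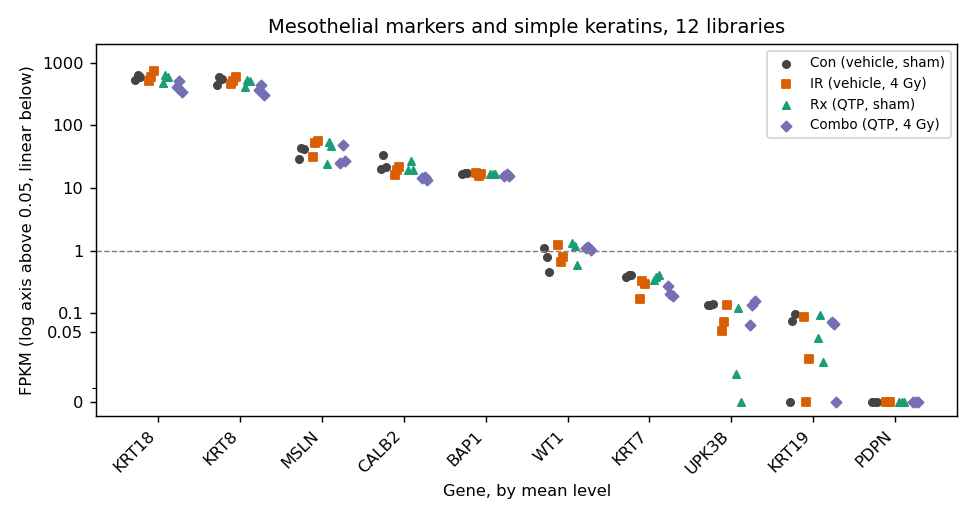
Levels of the 10 genes in the 12 libraries, in FPKM (log axis above 0.05, linear below), with 1 point per library and the groups by colour and shape. The dashed line is the filter at a mean of 1 FPKM: 5 genes lie above it, from BAP1 at 16.7 to KRT18 at 548.7, and PDPN lies at 0 throughout.

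No gene of the 10 passed the adjusted threshold in any of the 8 comparisons. The count over all tested genes was 0 as well in 7 comparisons, at a background of 0%, and 12 genes (0.092%) passed for QTP averaged over both radiation arms. The differences below are therefore given as values with their errors, and counts at an unadjusted p under 0.05 stand beside the share of all genes that reach it. The lowest levels of KRT8, KRT18 and CALB2 lay in Combo, the cultures that received both QTP and 4 Gy.

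KRT8 (ENSG00000170421, chr12:52897187-52949954, minus strand) encodes the type II chain of the simple epithelial keratin pair. Its level was 448, 588 and 552 FPKM in Con 1 to Con 3, and 457, 519 and 589 in IR 1 to IR 3. It was 417, 526 and 504 FPKM in Rx 1 to Rx 3, and 369, 443 and 305 in Combo 1 to Combo 3. All 3 Combo libraries were below all 3 Con and all 3 IR libraries, narrowly so for Combo 2 and Con 1. Combo 2 overlapped the Rx range. The group means were 529.5 ± 72.4, 521.8 ± 66.0, 482 ± 57.8 and 372 ± 69.5 FPKM (SD, n = 3) for Con, IR, Rx and Combo. On the log2(FPKM + 1) scale, Combo differed from Con by -0.51 (SE 0.16, limma adjusted p = 0.229). The difference was -0.49 against IR (SE 0.16, adjusted p = 0.184) and -0.38 against Rx (SE 0.16, adjusted p = 0.545). Without IR 3 and Combo 3 these 3 differences were -0.38, -0.27 and -0.24. In bulk RNA, fewer cells with a transcript and less of it per cell cannot be told apart.

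KRT18 (ENSG00000111057, chr12:52948871-52952901, plus strand) encodes the type I partner of KRT8. Its level was 525, 630 and 599 FPKM in Con 1 to Con 3, and 518, 594 and 751 in IR 1 to IR 3. It was 474, 634 and 587 FPKM in Rx 1 to Rx 3, and 411, 521 and 339 in Combo 1 to Combo 3. The Combo libraries were all below the Con libraries, narrowly so for Combo 2 and Con 1. Combo 2, the highest Combo library, lay just above IR 1 and above Rx 1. IR 3 held the highest KRT18 value and Combo 3 the lowest, as for KRT8. Leaving out both must therefore bring the IR and Combo means of these genes closer. The difference of Combo was -0.48 from Con (SE 0.18, limma adjusted p = 0.314), -0.56 from IR (SE 0.18, adjusted p = 0.184) and -0.43 from Rx (SE 0.18, adjusted p = 0.545). Without IR 3 and Combo 3 they were -0.33, -0.26 and -0.28. Both keratins also had a lower mean with QTP when the 2 radiation arms were averaged, by -0.31 for KRT8 (SE 0.11, adjusted p = 0.368) and -0.31 for KRT18 (SE 0.13, adjusted p = 0.415), or -0.20 and -0.16 without those 2 libraries.

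**Figure D2:**
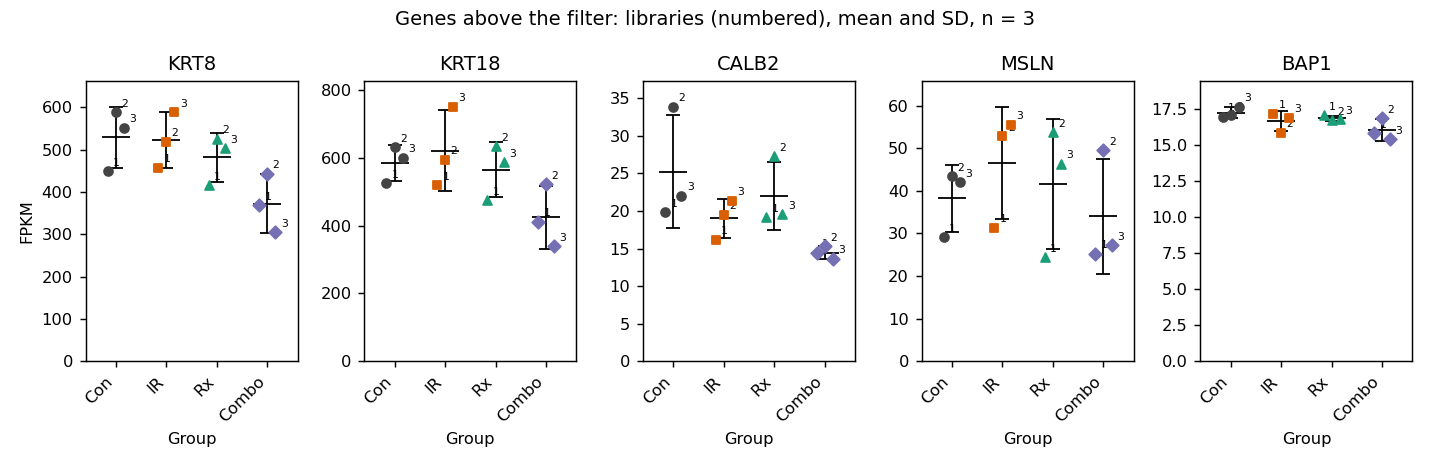
FPKM of the 5 tested genes in each library (points, numbered 1 to 3 within a group), with the group mean and SD (bars, n = 3), on axes from 0. For KRT8, KRT18, CALB2 and BAP1 all 3 Combo libraries lie below all 3 Con libraries, as for 12.8% of all tested genes. The gap is narrow between Combo 2 and Con 1 for KRT8 (443 and 448), KRT18 (521 and 525) and BAP1. MSLN overlaps throughout, and BAP1 stays between 15.4 and 17.7 FPKM.

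The keratin pair varied together from library to library, and CALB2 and MSLN partly varied with it. The r with KRT8 was 0.796 for CALB2 and 0.761 for MSLN, and that of CALB2 with KRT18 was 0.730. CALB2 and MSLN had an r of 0.499 with each other. Over the 12 libraries, log2 levels of KRT8 and KRT18 had a Pearson r of 0.977 and a Spearman rho of 0.958 (permutation p = 1e-05 for each, the smallest that 100000 permutations can give; adjusted 0.0001 over 10 pairs). The r was 0.927 without Combo 1 and Combo 3, the 2 libraries farthest from the median, 0.966 without IR 3 and Combo 3, and 0.967 for deviations from the group means. All 12 libraries were permuted freely, across groups and replicate numbers. The permutation p-values here and below therefore also take in differences between groups and between replicate numbers. Of 13037 other tested genes, KRT8 had the highest r with KRT18, followed by GPKOW (0.971) and SLC2A4RG (0.956). The libraries share 1 scaling per library across genes, and the 2 genes overlap by 1084 bases on opposite strands; whether the counting used strand is not given in the sources used here.

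**Figure D3:**
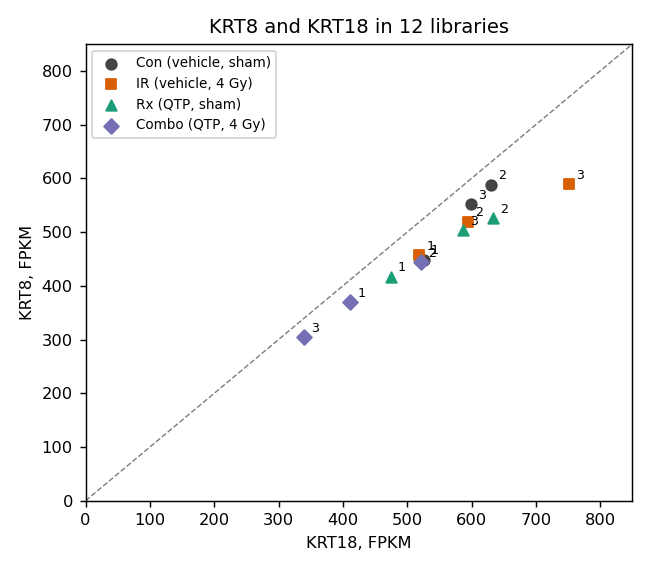
KRT8 against KRT18 in FPKM, 1 point per library (numbered within its group), with the line of equality dashed. All 12 points lie below the line, in a narrow band from Combo 3 (339 and 305) to IR 3 (751 and 589).

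The ratio of KRT8 to KRT18 stayed between 0.785 and 0.933 in FPKM, with means of 0.903 ± 0.043 (Con), 0.847 ± 0.054 (IR), 0.856 ± 0.024 (Rx) and 0.883 ± 0.027 (Combo; SD, n = 3). KRT18 was above KRT8 in 12 of 12 libraries by this measure. The order depends on the gene length used. The deposited lengths are 6881 bases for KRT8 and 3218 for KRT18, whereas the principal transcripts have 1755 and 1420 bases, and per principal transcript length, a measure chosen after the data were seen, KRT8 was above KRT18 in 12 of 12 libraries (ratio 1.36 to 1.61). Together the pair took a mean of 0.565% (Con), 0.548% (IR), 0.512% (Rx) and 0.402% (Combo) of all reads, with a range of 0.334% to 0.627% over the libraries.

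CALB2 (ENSG00000172137, chr16:71358713-71390438, plus strand) encodes calretinin, a calcium-binding protein that is among the markers most used for mesothelioma. Its level was 19.8, 33.9 and 22.0 FPKM in Con 1 to Con 3, and 16.2, 19.5 and 21.3 in IR 1 to IR 3. It was 19.2, 27.3 and 19.6 FPKM in Rx 1 to Rx 3, and 14.5, 15.3 and 13.6 in Combo 1 to Combo 3. The 3 Combo libraries were the 3 lowest of the 12 and lay close together (mean 14.5 ± 0.84, against 25.3 ± 7.58 in Con, SD, n = 3), and Con 2 was the highest. Combo differed from Con by -0.73 (SE 0.19, limma adjusted p = 0.155) and from Rx by -0.56 (SE 0.19, adjusted p = 0.545). With both QTP arms averaged, the irradiated libraries differed from the sham ones by -0.46 (SE 0.13, adjusted p = 0.386). Without Con 2 the difference of Combo from Con was -0.50, and without IR 3 and Combo 3 it was -0.69. Without these 2 libraries the difference from Rx was -0.52 and that for radiation -0.48.

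MSLN (ENSG00000102854, chr16:760762-768865, plus strand) encodes mesothelin, a surface glycoprotein that is a target of therapy in mesothelioma. Its level was 29.2, 43.4 and 42.1 FPKM in Con 1 to Con 3, and 31.4, 52.8 and 55.5 in IR 1 to IR 3. It was 24.4, 53.7 and 46.4 FPKM in Rx 1 to Rx 3, and 25.2, 49.5 and 27.3 in Combo 1 to Combo 3. The groups overlapped in every comparison, and no difference had an unadjusted p under 0.05. The library numbered 1 was the lowest of its group in 4 of 4 groups, as for 303 (2.32%) of the tested genes. The largest difference between group means was that of Combo from IR, whose 95% interval ran from -1.20 to 0.27. It rests in part on IR 3, the highest of the 12 libraries, and on Combo 3, which lay far below Combo 2. Its log2 level had an r of 0.801 with KRT18 over the 12 libraries (rho 0.818, permutation p = 0.00066 for r, adjusted 0.0033; r 0.772 without Rx 1 and Combo 1). The tested genes most like it were SEMA3B (r 0.968), FBLN1 (0.961) and PRKAG2 (0.961), over 12 libraries.

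BAP1 (ENSG00000163930, chr3:52401013-52410350, minus strand) encodes a nuclear deubiquitinase that is lost in many mesotheliomas; it is a tumour suppressor and no lineage marker. Its level was 17.0, 17.1 and 17.7 FPKM in Con 1 to Con 3, and 17.2, 15.9 and 16.9 in IR 1 to IR 3. It was 17.1, 16.7 and 16.8 FPKM in Rx 1 to Rx 3, and 15.8, 16.9 and 15.4 in Combo 1 to Combo 3. BAP1 had the narrowest range of the 5 tested genes, and no difference between groups had an unadjusted p under 0.05. All 3 Combo libraries were below all 3 Con libraries, by a margin that at Combo 2 and Con 1 was smaller than the spread within a group. The interval of that difference ran from -0.22 to 0.02. Its r with KRT8 of 0.649 (permutation p = 0.0234, adjusted 0.039; rho 0.448) was -0.000385 without Combo 1 and Combo 3, so it rests on those 2 libraries. The tested genes most like it were SRXN1 (r 0.871), COQ8B (0.856) and RAB4A (0.842).

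Read as a group, the 5 tested genes all had a lower mean in Combo than in Con, in IR and in Rx. Against Con, 3 of 5 had an unadjusted p under 0.05 (CALB2, KRT8 and KRT18), where 7.69% of all tested genes were lower with such a p, and 4 of 5 did not overlap, where the background was 12.8%. Against IR, 2 of 5 had such a p (KRT8 and KRT18; background 11.6%) and 2 of 5 did not overlap (KRT8 and CALB2; background 11.6%). Against Rx, 3 of 5 had such a p (background 6.3%) and 1 of 5 (CALB2) did not overlap (background 12.7%). The median difference was -0.48 against Con, -0.46 against IR and -0.38 against Rx, beside -0.01 over all tested genes in each. Without IR 3 and Combo 3 the counts with such a p were 2 of 5 against Con (background 4.72%), 0 of 5 against IR (background 2.42%) and 1 of 5 against Rx (background 3.92%), and the medians were -0.33, -0.24 and -0.24. These 3 comparisons share the Combo libraries, and 5 genes that were picked by symbol and move together are not independent.

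For radiation alone, IR against Con, 0 of the 5 tested genes had an unadjusted p under 0.05, where 6.86% of all tested genes did, and the median difference was -0.02 (0.01 over all). For QTP alone, Rx against Con, it was 0 of 5, where 3.26% of all did, with a median of -0.06 (0.00 over all). The interaction of QTP and radiation, which asks whether the combined difference departs from the sum of the single ones, had 0 of 5 with such a p (background 7.63%). Its value was -0.36 for KRT8, with an interval from -0.86 to 0.14, and -0.50 for KRT18, with an interval from -1.06 to 0.06. Without IR 3 and Combo 3 the interaction was -0.13 for KRT8 and -0.20 for KRT18. With treatments averaged, 2 of 5 were lower with such a p for QTP (background 6.17%) and 1 of 5 for radiation (background 5.17%). Without those 2 libraries it was 0 of 5 for QTP (background 2.46%) and 1 of 5 for radiation (background 5.25%).

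**Figure D4:**
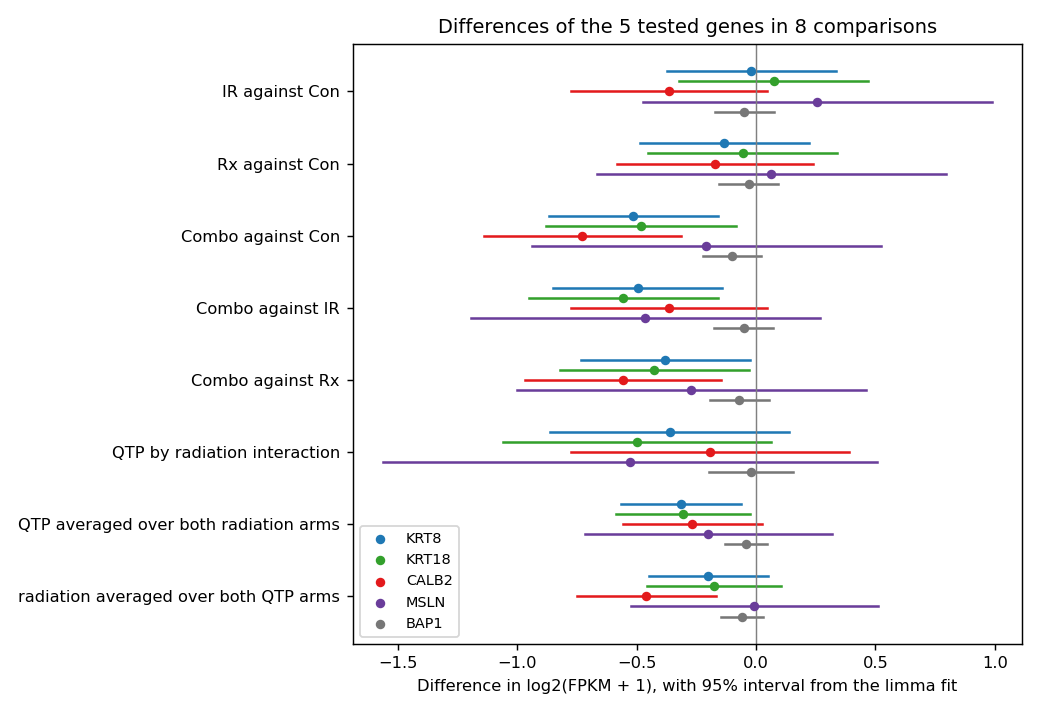
Differences in log2(FPKM + 1) of the 5 tested genes in the 8 comparisons, as points with 95% intervals from the limma fit. For KRT8, KRT18 and CALB2 the intervals of Combo against Con lie below 0 (from -1.14 to -0.32 for CALB2), and those of IR and Rx against Con include 0; no difference passed the adjusted threshold.

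The 5 genes below the filter rest on few reads. WT1 (ENSG00000184937, chr11:32387775-32435630, minus strand), a zinc finger transcription factor of the mesothelium and kidney, had 25 to 102 reads per library. Its level was 1.12, 0.785 and 0.458 FPKM in Con 1 to Con 3, and 1.24, 0.663 and 0.783 in IR 1 to IR 3. It was 1.34, 1.17 and 0.586 FPKM in Rx 1 to Rx 3, and 1.12, 1.15 and 1.04 in Combo 1 to Combo 3. The groups overlapped in every comparison, and Con 3 was the lowest library. In a limma fit with no filter, over 35273 genes, no WT1 difference had an unadjusted p under 0.05.

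KRT7 (ENSG00000135480, chr12:52232520-52252186, plus strand), the type II keratin of many glandular epithelia and of mesothelium, had 10 to 28 reads per library. Its level was 0.380, 0.409 and 0.405 FPKM in Con 1 to Con 3, and 0.169, 0.333 and 0.297 in IR 1 to IR 3. It was 0.343, 0.375 and 0.409 FPKM in Rx 1 to Rx 3, and 0.278, 0.205 and 0.192 in Combo 1 to Combo 3. The 6 irradiated libraries were all below the 6 sham ones, as for 46 of the 35273 genes above 0 in any library (0.13%). That share takes in many genes with few reads, and among the 13038 tested genes it was 0.284%. The gap was narrow between IR 2 (0.333) and Rx 1 (0.343), at under 1 read. IR 2 had 21 reads and Con 3 had 22. The reads summed to 155 in the sham libraries and 99 in the irradiated ones. In the fit with no filter, the irradiated libraries differed from the sham ones by -0.16 (SE 0.05, limma adjusted p = 0.690), and Combo differed from Con by -0.19 (SE 0.07, adjusted p = 0.491) and from Rx by -0.17 (SE 0.07, adjusted p = 0.771). At such low levels the log2(FPKM + 1) scale understates a difference, and no KRT7 difference passed the threshold.

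UPK3B (ENSG00000243566, chr7:76510428-76516521, plus strand), a uroplakin found in urothelium and mesothelium, had 0 to 8 reads per library and 19.6% of its 50-base windows in common with other genes, chiefly UPK3BP1. Its level was 0.135, 0.135 and 0.142 FPKM in Con 1 to Con 3, and 0.0520, 0.0732 and 0.135 in IR 1 to IR 3. It was 0.0203, 0.124 and 0 FPKM in Rx 1 to Rx 3, and 0.0641, 0.138 and 0.157 in Combo 1 to Combo 3. The 3 Rx libraries were below the 3 Con libraries, as for 3.46% of the 35273 genes, though Rx 2, Con 1 and Con 2 each had 6 reads. That margin is under 1 read. The 3 IR libraries were also below the 3 Con libraries, by a margin far under 1 read, as for 3.73%. Combo overlapped the other 3 groups. In the fit with no filter, Rx differed from Con by -0.12 (SE 0.05, limma adjusted p = 1).

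KRT19 (ENSG00000171345, chr17:41523617-41528308, minus strand), the small type I keratin of simple epithelia, had 0 to 4 reads per library and was at 0 in 3 libraries, and its highest value was 0.0968 FPKM in Con 3. The pseudogene KRT19P6 was at 1.14 FPKM, above the KRT19 gene itself. PDPN (ENSG00000162493, chr1:13583465-13617957, plus strand), which encodes podoplanin, a mucin-like membrane protein and a marker of mesothelioma and lymphatic vessels, had no read in any of the 12 libraries. Up to 3 reads are allowed by a count of 0, which is 0.0423 to 0.0610 FPKM, for counting error only.

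**Figure D5:**
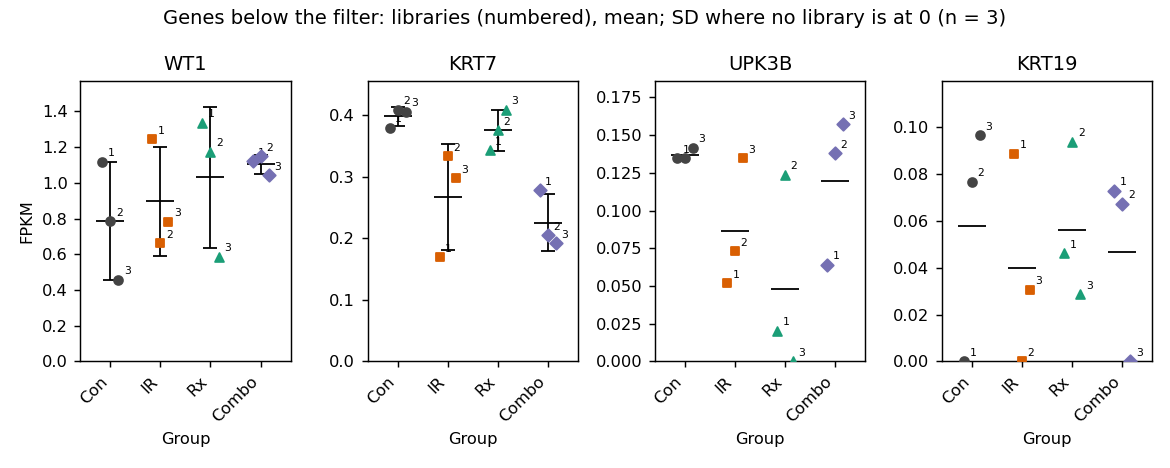
FPKM of WT1, KRT7, UPK3B and KRT19 in each library (points, numbered 1 to 3 within a group), with the group mean, and the SD (n = 3) for the genes with no library at 0. The 6 irradiated libraries lie at 0.333 or below for KRT7 and the 6 sham ones at 0.343 or above; PDPN, at 0 throughout, is not drawn.

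Further lists place these genes in their pathways; 0 genes of any list passed the adjusted threshold in any comparison. Of 14 other mesothelial markers, 5 had a mean of at least 1 FPKM, led by the transcription factor BNC1 (13.1 FPKM), the tight junction gene CLDN15 (9.85) and the receptor HEG1 (9.29). In Combo against Con, 3 of 5 had a higher and 2 a lower mean, and 0 had an unadjusted p under 0.05 (background 13.2% in either direction). In IR against Con, 4 of 5 had a lower mean. In Combo against IR all 5 had a higher mean, with a median of 0.11, and 1 of 5 had an unadjusted p under 0.05 (background 5.91% higher). That gene was TBX18, named after its values were seen, a transcription factor of mesothelial precursors. Its difference was 0.33 (SE 0.07, limma adjusted p = 0.165).

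Of 16 other keratins, 4 had a mean of at least 1 FPKM, led by KRT80 (28.4), KRT10 (14.3) and KRT15 (6.16), and KRT1, KRT6B and KRT20 were at 0. No keratin of this list came near the FPKM of KRT8 and KRT18. KRT80, a type II keratin, was at 27.9, 36.0 and 33.5 FPKM in Con 1 to Con 3, and at 22.7, 25.3 and 27.8 in IR 1 to IR 3. It was at 29.1, 32.7 and 32.4 FPKM in Rx 1 to Rx 3, and at 23.7, 26.4 and 23.4 in Combo 1 to Combo 3. All 6 irradiated libraries were below all 6 sham ones, narrowly so for IR 3 and Con 1, as for 0.284% of the tested genes. Its irradiated libraries differed from the sham ones by -0.35 (SE 0.07, limma adjusted p = 0.349).

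Of 10 genes of epithelial junctions and of plakins, which tie keratin filaments to the membrane, 5 passed the filter. PLEC (182 FPKM), DSG2 (54.0) and PPL (21.1) were the highest, while CDH1, the epithelial cadherin, was at 0.0109 FPKM. In Combo against Con all 5 had a lower mean, with a median of -0.17 (-0.01 over all tested genes), and 2 of 5 (PPL and PKP3) had an unadjusted p under 0.05, where 7.69% of all tested genes were lower with such a p. The cell junction protein periplakin, PPL, differed by -0.57 (SE 0.16, limma adjusted p = 0.188). The plakophilin gene PKP3, named after its values were seen, differed by -0.43 (SE 0.09, limma adjusted p = 0.134).

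Carcinoma markers were low: 1 of 9 passed the filter, PAX8 at 8.05 FPKM, and CEACAM5 and CEACAM6 were at 0 and EPCAM at 0.0243. Of 12 mesenchymal genes 10 passed, led by the intermediate filament gene VIM (232), the matrix gene SPARC (168) and the cadherin CDH2 (15.3). The summed level of the 12 was 408.2 to 460.4 FPKM in Con, 460.8 to 513.2 in IR, 402.3 to 485.5 in Rx and 421.8 to 450.1 in Combo. The IR libraries lay above all Con and Combo libraries, narrowly so for Con, while Con, Rx and Combo overlapped. VIM and SPARC made up most of this sum, and no share over all genes was taken for it. In IR against Con, 8 of the 10 tested genes had a higher mean, and 1 was higher with an unadjusted p under 0.05 (background 3.69%). Without IR 3 and Combo 3 these counts were 7 and 0 (background 2.52%). In a list of 12 markers of blood, endothelial and stromal cells, 2 passed the filter, LUM (4.98) and PDGFRB (1.55), and CD3E and LYZ were at 0. The summed level of these 12 markers was 5.20 to 6.62 FPKM in Con, 6.17 to 6.41 in IR, 6.44 to 7.61 in Rx and 5.97 to 9.62 in Combo. Most of it came from LUM and PDGFRB. All libraries came from 1 cell line, and a relation of this sum to the Combo values of the 10 genes was not tested.

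BAP1 works in a complex with ASXL proteins and the cofactor HCFC1. Of 11 genes of this complex and its partners 9 passed the filter, led by OGT (49.1), HCFC1 (15.3) and FOXK1 (13.3). In Combo against IR all 9 had a higher mean, with a median of 0.21, and 6 of 9 were higher with an unadjusted p under 0.05, where 5.91% of all tested genes were. Without IR 3 and Combo 3, 7 of 9 had a higher mean, with a median of 0.15, and 1 of 9 had such a p (background 1.9%). OGT, which encodes the O-GlcNAc transferase, differed by 0.32 (SE 0.10, limma adjusted p = 0.181), or 0.19 without those 2 libraries, while BAP1 itself differed by -0.05. In IR against Con all 9 had a lower mean, with a median of -0.12, and 2 of 9 were lower with such a p (background 3.17%). Without IR 3 and Combo 3, 7 of 9 were lower in IR, with a median of -0.04, and 0 were lower with such a p (background 2.45%). In Combo against Con, 8 of 9 had a higher mean, with a median of 0.12, and 1 of 9 was higher with such a p (background 5.49%).

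Of 9 tumour suppressor genes of mesothelioma 7 passed, among them NF2 (9.39), which encodes merlin, and the Hippo pathway kinase gene LATS2 (8.01), while CDKN2A was at 0.117 FPKM and CDKN2B at 0. Against Con, 1 of the 7 was higher (background 5.49%) and 1 lower (background 7.69%) in Combo with an unadjusted p under 0.05. Of 8 genes for the processing or binding of mesothelin and podoplanin 7 passed, led by the hyaluronan receptor CD44 (44.3), the membrane linker MSN (43.6) and the tetraspanin CD9 (43.3), and CLEC1B, the podoplanin receptor of platelets, was at 0.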

How the data were processed

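The authors deposited FPKM per gene for 12 libraries, with gene lengths and coordinates; the submitters' processing notes name the build, hg38, while aligner, counter and use of strand were not given in the sources used here. All 58735 gene identifiers matched GENCODE 29. FPKM times length was a whole number of reads in 100% of values above 0 (tolerance 0.01 read), and those reads were recovered. Libraries were grouped by title, and 0 value columns were without a sample. Group means of log2(FPKM + 1) were fitted with limma 3.58.1 (R 4.3.3, variance trend, two-sided tests, 8 comparisons) over 13038 genes whose mean reached 1 FPKM; correlations used Python 3.11.15 and scipy 1.17.1. The test was tested on simulated data. The 10 genes, the context lists and the tests were chosen with earlier results of these data known. All 10 genes were named, with a difference where the unadjusted p was under 0.05; from each list, genes past the threshold, the 3 highest, markers at 0, and the genes said to be named later; 1 gene of the lists and some keratin stretches are not reported here. Alternatives were another pseudocount (0.1), no filter or at least 5 FPKM, 2 scalings, the groups compared alone, limma voom, the replicate number as a block, and libraries left out.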

Additional observations from a re-analysis of the deposited data

How the results depend on the processing

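Of the 10 genes, 0 passed the threshold under any of the alternatives run, and each KRT8, KRT18 and CALB2 difference printed from the tests on filtered genes kept its direction. CALB2 in Combo against Con came closest with the replicate number as a block (adjusted p = 0.0555; 0.155 without it), and KRT18 in Combo against IR without IR 1 (0.0538). The titles give only a replicate number, and the main fit did not pair libraries by it. For pairs of libraries from different groups, the deviations of log2 levels from the group means were correlated, not the levels themselves. By this measure same-numbered libraries correlated at -0.207 to 0.354, over 0.1 in 11 of 18 pairs, and others at -0.272 to 0.262. Deviations cancel within a group, so these 2 ranges are not independent. Of 12 libraries, 10 correlated best with their own number. The library numbered 1 was the lowest in 3 of 4 groups for KRT8, KRT18 and CALB2. An effect shared by a number therefore remains in the SEs and p-values of the main fit. The block lowered the SE of MSLN from 0.33 to 0.17, and its Combo against IR difference of -0.46 then had an adjusted p of 0.195 (0.476 without the block). That difference rests in part on IR 3 and Combo 3. Counts over all tested genes moved more. With no filter, the genes called numbered 5 for Combo against Con, 6 for Combo against IR, 4 for Combo against Rx, 5 for IR against Con, 1 for Rx against Con, 6 for the interaction, 6 for QTP averaged and 5 for radiation averaged, each against 0 except QTP averaged (12). With the replicate block 90 were called in Combo against Con and 3 for radiation averaged. For QTP averaged the count was 24 at a mean of at least 5 FPKM, 0 by TPM, 0 by the median of ratios, 34 by limma voom and 0 without IR 3 and Combo 3. Leaving out 1 library gave 0 to 956 genes in Combo against IR (956 without IR 1), 0 to 3 in IR against Con (3 without IR 1), 0 to 3 for the interaction (3 without IR 1), 0 to 1 for radiation averaged (1 without Rx 2) and 0 to 18 for QTP averaged (18 without Rx 1). Leaving out Combo 3 gave KRT8 and KRT18 differences of -0.24 and -0.28 against Rx. The planned quasi-likelihood count test was not run, since the deposited unit is FPKM. Depth limits WT1, KRT7, UPK3B, KRT19 and PDPN, which had at most 102 reads in a library.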
